A study of Mus musculus with 6 samples.

Results

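The genes described here are 7 members of the Fc gamma receptor system, chosen by symbol from a table of 19309 genes: the activating IgG receptor genes Fcgr1, Fcgr3 and Fcgr4, the inhibitory receptor gene Fcgr2b, the shared signalling chain Fcer1g, the kinase Syk and the neonatal receptor gene Fcgrt. All 7 were in the table and all 7 had enough reads to be tested. They were measured by RNA sequencing of whole ear skin from 3 C57BL/6 mice aged 6 to 8 weeks. DNFB (2,4-dinitrofluorobenzene) is a hapten: it couples to skin proteins and sets off a T cell response. All animals had been sensitised at the start with 0.5% DNFB in a volume of 25 µL. From day 6, for 6 days, 0.25% DNFB (10 µL) was put on the left ear and the solvent alone (80% acetone, 20% olive oil) on the right ear. The 3 DNFB ears and the 3 vehicle ears are therefore paired within animals, and libraries carry the number of their mouse, and the vehicle ears also come from sensitised mice.

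IgG receptors of leukocytes bind the constant region of antibodies, often in immune complexes. Activating receptors signal through the FcR gamma chain, encoded by Fcer1g, whose ITAM (a tyrosine-based activation motif) is phosphorylated by Src family kinases and then recruits the kinase Syk. FcγRIIB carries an inhibitory motif, ITIM, in its own tail and recruits the phosphatase SHIP-1, so the balance of activating and inhibitory receptors sets the threshold of macrophages, neutrophils, mast cells and dendritic cells. FcRn, the product of Fcgrt with B2m, works differently: it binds IgG and albumin inside acidic vesicles and returns them to the cell surface.

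The libraries held 19556800 to 20336900 estimated counts (rounded). Whole-number counts made up 65.5% of values in DNFB library 1 and 67.1% to 67.3% in the vehicle libraries, but 43.7% and 41.6% in DNFB libraries 2 and 3. Markers of ear skin were present in all libraries: the 8 keratinocyte markers summed to 8017 to 13863 CPM (counts scaled to library size) in DNFB ears and 15258 to 20251 CPM in vehicle ears, and the 6 fibroblast markers to 13158 to 17121 CPM in DNFB ears and 12268 to 12848 CPM in vehicle ears. DNFB and vehicle ears were compared by edgeR's quasi-likelihood test with Benjamini-Hochberg adjustment over 15317 genes tested, at a threshold of 0.05. The fit held treatment only, so the pairing of ears within animals was not used, and a mouse block was run as an alternative. In this comparison 51.3% of the genes tested passed, 25.9% higher and 25.4% lower in DNFB ears.

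The sequences matter for Fcgr2b and Fcgr3 because reads of 50 bases cannot always be assigned to one of the pair. The coding sequences of Fcgr2b and Fcgr3 were 88.0% identical over 778 aligned bases, with a longest shared run of 129 bases, whereas no other pair of the 4 receptor genes shared a run longer than 14 bases. The stretch around that run is printed from the GENCODE M21 transcripts (GRCm38), coding strand, with the 5 bases that differ in capitals. It covers bases 248 to 436 of the Fcgr2b coding sequence in exons 3 and 4 (chr1:170966644-170968111, minus strand, intron included in this span) and bases 233 to 421 of the Fcgr3 coding sequence in exons 3 and 4 (chr1:171054137-171057822, minus strand).
Fcgr2b: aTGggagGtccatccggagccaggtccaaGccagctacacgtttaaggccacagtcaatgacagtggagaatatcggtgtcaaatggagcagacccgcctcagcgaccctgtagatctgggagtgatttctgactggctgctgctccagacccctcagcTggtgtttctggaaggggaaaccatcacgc
Fcgr3: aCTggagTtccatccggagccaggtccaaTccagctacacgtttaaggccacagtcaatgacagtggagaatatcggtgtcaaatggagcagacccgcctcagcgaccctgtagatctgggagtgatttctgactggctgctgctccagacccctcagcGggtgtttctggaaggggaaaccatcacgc
Of all distinct 50-base words in protein-coding transcripts, 166 were common to both genes, which is 10.2% of the 1627 words of Fcgr3 and 4.48% of the 3708 words of Fcgr2b. A further part of the Fcgr2b words matched other genes, for 7.77% in all. Fcgr1, Fcgr4, Fcer1g, Fcgrt and Syk shared no such word with another gene.

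The largest increases were those of Fcgr4 and Fcgr1, the activating receptors with the lowest levels in vehicle ears. Fcgr4 rose 160.7-fold and Fcgr1 39.2-fold, Syk rose 10.3-fold, Fcer1g 7.42-fold, Fcgr2b 6.64-fold and Fcgr3 6.41-fold in DNFB ears, while Fcgrt did not pass. Thus 6 of the 7 members were called higher, beside 25.9% of all genes tested. The same 6 members had no overlap between the groups and were higher in DNFB ears, as were 30.6% of all genes tested. All 6 also exceeded a 4-fold increase, as did 6.29% of all genes tested. The median log2 fold change was 2.89 over the 7 members and −0.02 over all genes tested. These are values of whole skin, in which more cells of a type and more RNA per cell cannot be told apart.

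**Figure D1:**
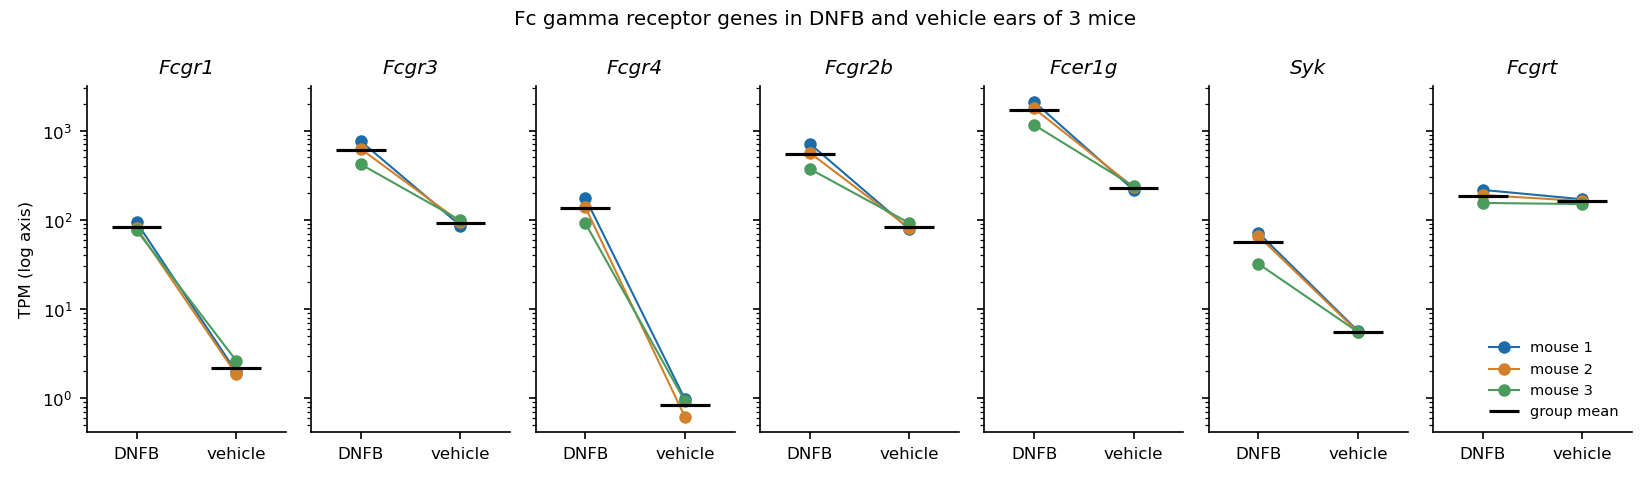
TPM (log axis) of the 7 genes in the DNFB ear (left) and the vehicle ear (right) of each of 3 mice; a line joins the ears of a mouse and black bars are group means. Fcgr4 stands at 91.5 to 176 TPM in DNFB ears and at 0.620 to 0.980 TPM in vehicle ears, while the lines of Fcgrt are nearly flat.

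Fcgr1 (Entrez gene 14129) encodes FcγRI, the high-affinity receptor that binds single IgG molecules. It measured 93.4, 80.8 and 76.3 TPM (a level scaled for gene length and library size) in the DNFB ears of mice 1, 2 and 3, against 1.98, 1.86 and 2.64 TPM in their vehicle ears. The groups were far apart, and the 3 DNFB ears lay close to each other. In CPM the means were 127 ± 13.1 in DNFB ears and 3.23 ± 0.450 in vehicle ears (SD, n = 3 each), and the log2 fold change was 5.29 ± 0.15 (SE, adjusted p = 9.35e-06 by edgeR). Only 0.764% of the genes tested had a larger log2 fold change.

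Fcgr4 (Entrez gene 246256) encodes FcγRIV, a mouse receptor of monocytes, macrophages and neutrophils with intermediate affinity for IgG. Its level was 176, 138 and 91.5 TPM in the DNFB ears of mice 1, 2 and 3, against 0.980, 0.620 and 0.930 TPM in their vehicle ears. Vehicle ears held only 14, 9 and 13 estimated counts of Fcgr4, so the fold rests on few reads there. The log2 fold change was 7.33 ± 0.33 (SE, adjusted p = 2.48e-05 by edgeR), and 0.189% of the genes tested had a larger one. On the log2(TPM + 1) scale, which compresses low levels, the difference was 6.16.

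Fcgr3 (Entrez gene 14131) encodes FcγRIII, the low-affinity activating receptor for immune complexes. It stood at 756, 621 and 418 TPM in the DNFB ears of mice 1, 2 and 3, against 86.0, 93.8 and 98.1 TPM in their vehicle ears. Every DNFB ear was above every vehicle ear, and the DNFB ear of mouse 3 was the lowest of the DNFB ears. The log2 fold change was 2.68 ± 0.22 (SE, adjusted p = 0.000193 by edgeR).

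Fcgr2b (Entrez gene 14130) encodes the inhibitory receptor FcγRIIB and nearly repeated the values of Fcgr3. It measured 715, 566 and 372 TPM in the DNFB ears of mice 1, 2 and 3, against 78.8, 80.8 and 92.0 TPM in their vehicle ears. The log2 fold change was 2.73 ± 0.23 (SE, adjusted p = 0.000225 by edgeR). The deposited estimated counts of this pair were fractional in every library, for example 11772.61 for Fcgr2b and 11894.39 for Fcgr3 in DNFB library 1. Their sum was a whole number in that library and in all 3 vehicle libraries. In DNFB libraries 2 and 3 the sum was fractional (18793.15 and 12869.46). The counts of all other members were fractional in those libraries too, so fractions there do not mark this pair. Summed as a single row, the pair gave 2.71 ± 0.23 on the log2 scale (SE, adjusted p = 0.000217 by edgeR). The increase of the pair thus does not depend on how reads were divided between Fcgr2b and Fcgr3. The split between the inhibitory and the activating gene is uncertain.

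Fcer1g (Entrez gene 14127), the ITAM chain that carries FcγRI, FcγRIII and FcγRIV to the surface, was the most abundant member in every library. It reached 2104, 1772 and 1160 TPM in the DNFB ears of mice 1, 2 and 3, against 216, 232 and 238 TPM in their vehicle ears. The vehicle ears were nearly alike, whereas the DNFB ears spread widely, at 1679 ± 479 TPM in DNFB ears and 229 ± 11.3 TPM in vehicle ears (SD, n = 3 each). The log2 fold change was 2.89 ± 0.22 (SE, adjusted p = 0.000160 by edgeR).

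Syk (Entrez gene 20963), the tyrosine kinase that docks on the phosphorylated ITAM, measured 71.4, 65.8 and 32.1 TPM in the DNFB ears of mice 1, 2 and 3, against 5.67, 5.52 and 5.53 TPM in their vehicle ears. The DNFB ear of mouse 3 was again the lowest of its group and still above all vehicle ears. The log2 fold change was 3.36 ± 0.30 (SE, adjusted p = 0.000274 by edgeR).

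Fcgrt (Entrez gene 14132), which encodes the heavy chain of FcRn, stood apart from the leukocyte receptors. Its level was 216, 189 and 154 TPM in the DNFB ears of mice 1, 2 and 3, against 170, 162 and 150 TPM in their vehicle ears. The ranges of the groups overlapped, and each DNFB ear was at or slightly above the vehicle ear of the same mouse. The log2 fold change was 0.23 ± 0.15 (SE, adjusted p = 0.231 by edgeR). With DNFB library 3 left out it was 0.34 with an adjusted p of 0.0412, and without both ears of mouse 3 it was 0.27 with an adjusted p of 0.0646.

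**Figure D2:**
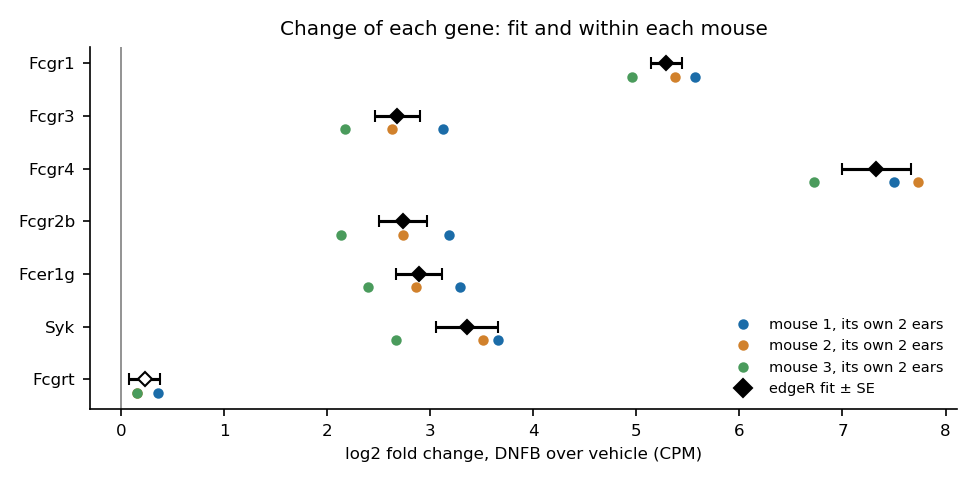
Log2 fold change of CPM, DNFB over vehicle, for each gene: diamonds are the edgeR fit with its SE (filled where the adjusted p passed, open where it did not) and coloured points are the differences between the 2 ears of each mouse. In mouse 3 the increase is the smallest of the 3 mice for the 6 genes that passed, from 2.13 for Fcgr2b to 6.73 for Fcgr4; for Fcgrt the points of mice 2 and 3 coincide.

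Within animals, Fcgr4 was 181-fold, 212-fold and 106-fold higher in the DNFB ear than in the vehicle ear of mice 1, 2 and 3 in CPM. For Fcgr1 these folds were 47.3, 41.4 and 31.2, a narrower spread than that of Syk at 12.6, 11.4 and 6.35. Fcgr2b gave 9.10, 6.66 and 4.38, Fcgr3 8.71, 6.18 and 4.51, and Fcer1g 9.79, 7.28 and 5.26. All 6 increases were thus seen in 3 of 3 mice and were smallest in mouse 3. Fcgrt was 1.28-fold, 1.11-fold and 1.11-fold higher.

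Ordered by TPM, the members of DNFB ears were Fcer1g, Fcgr3, Fcgr2b, Fcgrt, Fcgr4, Fcgr1 and Syk, and each of the 3 DNFB libraries had this order. In vehicle ears the order was Fcer1g, Fcgrt, Fcgr3, Fcgr2b, Syk, Fcgr1 and Fcgr4, again in each of the 3 vehicle libraries. Some neighbours in these orders had overlapping ranges and are not separated by more than their spread: Fcgr3 and Fcgr2b in both groups, and Fcgrt with Fcgr4 and Fcgr4 with Fcgr1 in DNFB ears. Fcgr4, the lowest of the 7 in vehicle ears, had moved above Fcgr1 and Syk in DNFB ears.

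The make-up of the IgG receptor transcripts differed between the groups. The TPM of Fcgr1, Fcgr2b, Fcgr3 and Fcgr4 summed to 1741, 1406 and 958 in the DNFB ears of mice 1, 2 and 3, against 168, 177 and 194 in their vehicle ears. Fcgr4 made up 10.1%, 9.83% and 9.55% of that sum in DNFB ears, against 0.584%, 0.350% and 0.480% in vehicle ears. Fcgr1 made up 5.36%, 5.75% and 7.97% in DNFB ears, against 1.18%, 1.05% and 1.36% in vehicle ears. The inhibitory Fcgr2b accounted for 38.9% to 41.1% in DNFB ears and 45.6% to 47.5% in vehicle ears.

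**Figure D3:**
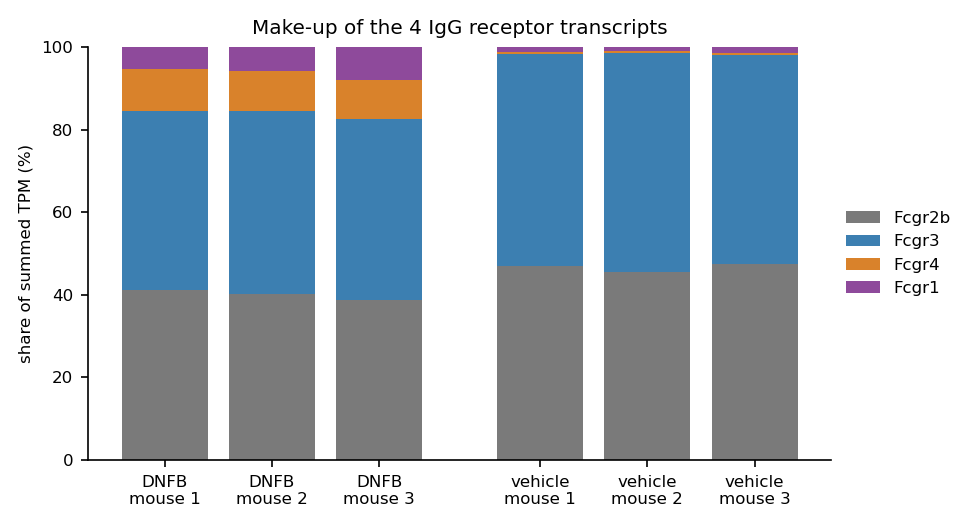
Share of the summed TPM of 4 IgG receptor genes (stacked bars, percent) in the 3 DNFB ears (left) and the 3 vehicle ears (right). Fcgr4 and Fcgr1 together form a visible part of the bars in DNFB ears and a thin edge in vehicle ears, and Fcgr2b and Fcgr3 stay close to each other in all 6 libraries.

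Each activating receptor was set against Fcgr2b within a library, with 3 such ratios tested. The TPM of Fcgr4 was 24.6%, 24.4% and 24.6% of that of Fcgr2b in the DNFB ears of mice 1, 2 and 3, against 1.24%, 0.767% and 1.01% in their vehicle ears. The mean difference of the log2 ratio was 4.63, and within mice 1, 2 and 3 it was 4.31, 4.99 and 4.60. For Fcgr1 the ratio to Fcgr2b was 13.1%, 14.3% and 20.5% in DNFB ears, against 2.51%, 2.30% and 2.87% in vehicle ears, a mean difference of the log2 ratio of 2.62. The ratio of Fcgr3 to Fcgr2b was 1.06, 1.10 and 1.12 in DNFB ears, against 1.09, 1.16 and 1.07 in vehicle ears, a mean difference of −0.02 on the log2 scale that lay within the spread between libraries (pooled SD 0.0542). By an exact two-sided permutation test without pairing, p was 0.1 for Fcgr4, 0.1 for Fcgr1 and 0.7 for Fcgr3. After adjustment over the 3 ratios it was 0.15, 0.15 and 0.7. With 3 libraries per group 0.1 is the smallest p this test can give, so none of the ratios can pass a threshold of 0.05, and the statement on Fcgr3 and Fcgr2b is limited by their shared reads.

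The common chain was set against the summed activating receptors, and the kinase against the common chain. The TPM of Fcer1g was 2.05, 2.11 and 1.98 times the summed TPM of Fcgr1, Fcgr3 and Fcgr4 in the DNFB ears of mice 1, 2 and 3, against 2.43, 2.41 and 2.34 times in their vehicle ears. Syk amounted to 3.40%, 3.71% and 2.77% of the TPM of Fcer1g in DNFB ears, against 2.63%, 2.38% and 2.33% in vehicle ears. The groups did not overlap in either quantity, and these ratios were not tested.

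Because Fcgr1 and Fcgr4 moved furthest, their upstream sequences are printed, with that of Fcgr2b as a receptor of smaller change. Each run holds the 250 bases before the RefSeq start of the gene (GRCm38.p6, 5′ to 3′ on the strand of the gene), at chr3:96293970-96294219 on the minus strand for Fcgr1, chr1:171018676-171018925 on the plus strand for Fcgr4 and chr1:170976072-170976321 on the minus strand for Fcgr2b. Capitals mark matches, on either strand, to a STAT-type GAS motif (TTCNNNGAA), an interferon-response motif (GAAANNGAAA) or the ETS-type core bound by the myeloid factor PU.1 (GAGGAA).
Fcgr1: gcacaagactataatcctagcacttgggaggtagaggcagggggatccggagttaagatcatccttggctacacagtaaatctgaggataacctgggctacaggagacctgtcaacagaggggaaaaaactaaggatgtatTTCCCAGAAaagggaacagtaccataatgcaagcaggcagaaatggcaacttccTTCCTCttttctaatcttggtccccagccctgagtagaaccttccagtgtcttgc
Fcgr4: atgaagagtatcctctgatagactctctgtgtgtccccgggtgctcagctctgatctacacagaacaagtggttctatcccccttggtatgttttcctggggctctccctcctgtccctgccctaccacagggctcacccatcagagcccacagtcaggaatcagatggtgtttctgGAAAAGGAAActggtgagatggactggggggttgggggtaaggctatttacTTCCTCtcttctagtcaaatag
Fcgr2b: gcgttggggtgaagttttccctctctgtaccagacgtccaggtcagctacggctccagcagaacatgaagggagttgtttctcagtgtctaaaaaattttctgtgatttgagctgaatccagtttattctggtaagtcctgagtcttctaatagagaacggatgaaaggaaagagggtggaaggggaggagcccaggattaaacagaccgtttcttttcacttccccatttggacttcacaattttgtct
Fcgr1 held a GAS match, TTCCCAGAA, 109 to 101 bases upstream and a PU.1 match 55 to 50 bases upstream. Fcgr4 held an interferon-response match, GAAAAGGAAA, 73 to 64 bases upstream and a PU.1 match 22 to 17 bases upstream. The Fcgr2b window held none of these letters, whereas Fcgr3, with a change of similar size, held PU.1 letters. A link between the letters and the size of the change was not tested. All 7 members were found in the RefSeq table, with 9 windows in all. Among them GAS letters were found in 1 window, of Fcgr1, and interferon-response letters in 1 window, of Fcgr4. PU.1 letters were found in 5 windows of 4 members, Fcgr1, Fcgr3, Fcgr4 and Syk. The windows of Fcgr3 overlap and hold the same PU.1 site. Over all 32851 windows of that length, 7.02% held the GAS letters, 2.98% the interferon-response letters and 23.3% the PU.1 letters. The 3 motifs do not overlap each other in the windows shown, and a match describes letters, not binding.

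Kinases and adaptors downstream of the activating receptors were mostly higher. Of 39 such genes, Syk among them, 29 rose, 4 fell and 6 did not pass in DNFB ears (25.9% of all genes tested rose and 25.4% fell), with a median log2 fold change of 1.04 beside −0.02 over all genes tested. The Src family kinase of myeloid cells Fgr, which phosphorylates ITAMs, averaged 102 ± 29.4 CPM in DNFB ears and 5.27 ± 2.15 CPM in vehicle ears (SD, n = 3 each; log2 fold change 4.27, adjusted p = 0.000204). The adaptor Lcp2 (SLP-76) rose by 3.62 on the log2 scale and the exchange factor Vav1 by 3.53. The most abundant of those that did not pass were Vav3 (log2 fold change 0.27, adjusted p = 0.147) and Prkcb (0.59, adjusted p = 0.0537). Prkcb passed with DNFB library 3 left out (0.80, adjusted p = 0.000749).

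The 4 signalling genes that fell, named after their values were seen, were Plcg1 (−0.67, adjusted p = 0.000846), Nfatc1 (−0.52, adjusted p = 0.0257), Pik3r1 (−0.46, adjusted p = 0.00569) and Pik3cb (−0.39, adjusted p = 0.0259). Plcg1 is a phospholipase C widely expressed outside leukocytes, Pik3r1 and Pik3cb are subunits of phosphoinositide 3-kinases found in many cell types, and Nfatc1 is a calcium-regulated transcription factor. The calls of Pik3cb and Nfatc1 were lost under a mouse block (adjusted p = 0.0716 and 0.0513), with vehicle library 1 left out (0.0811 and 0.101) and without that of mouse 3 (0.0894 and 0.0904). Pik3cb was also lost with DNFB library 1 left out (0.0790). Pik3r1 did not pass without both ears of mouse 1 (0.0948) or of mouse 2 (0.0943).

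Most genes of a list drawn up for inhibitory signalling rose too. The list was not limited to genes whose only role is inhibition, and Ptprc, Ptprj and Ptpn11 are among those with other roles. Of 17 genes, 14 rose, 1 fell and 2 missed the threshold, with a median log2 fold change of 1.51. Among all genes tested 25.9% rose and 25.4% fell. Inpp5d, which encodes SHIP-1, the lipid phosphatase recruited by FcγRIIB, averaged 129 ± 43.3 CPM in DNFB ears and 29.9 ± 1.57 CPM in vehicle ears (SD, n = 3 each; log2 fold change 2.10, adjusted p = 0.000777), and Ptpn6, the phosphatase SHP-1, rose by 1.68 on the log2 scale. Both were singled out for their known role, after their values were seen. The largest increases were those of Ubash3a, a phosphatase-like regulator of T cells (4.73, or 6.19 with vehicle library 3 left out; adjusted p = 0.0593 without both ears of mouse 2), the leukocyte phosphatase Ptprc (CD45; 3.01), the Src-like adaptor Sla (2.93) and the adaptor Dok3 (2.80). Ubash3a was low, at 4.13 ± 2.36 CPM in DNFB ears and 0.146 ± 0.165 CPM in vehicle ears (SD, n = 3 each). The gene that fell, named after its value was seen, was Ptpn11, the phosphatase SHP-2 (−0.25, adjusted p = 0.0370). Under a mouse block its adjusted p was 0.142, and it no longer passed without either of DNFB ears 1 and 2 or any vehicle ear (adjusted p 0.0660 to 0.138). Inppl1 (0.19, adjusted p = 0.243) and Dok1 (−0.37, adjusted p = 0.169) did not pass, although Inppl1 did with vehicle library 3 left out (adjusted p = 0.0366) and Dok1 with DNFB library 1 left out (adjusted p = 0.0288).

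**Figure D4:**
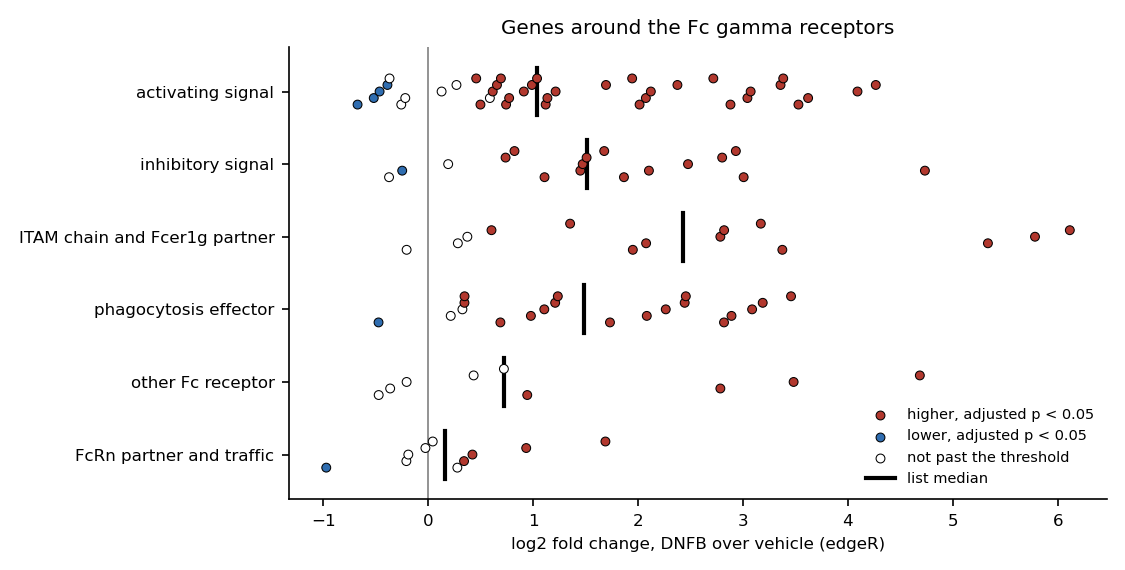
Log2 fold change (edgeR, DNFB over vehicle) of each tested gene in 6 lists around the Fc gamma receptors; red points were called higher, blue points lower, open points did not pass, and the black bar is the list median. The medians run from 0.16 for FcRn partners to 2.43 for ITAM chains and Fcer1g partners.

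A list of other ITAM chains and receptors that pair with Fcer1g also held Clec7a and the adaptor Hcst, which are neither. Over its 14 tested genes of 18 the median log2 fold change was 2.43. Of these 11 rose, none fell and 3 did not pass, beside 25.9% higher and 25.4% lower among all genes tested. Clec4e (Mincle) and Clec4d, C-type lectin receptors that signal through Fcer1g, rose by 6.12 and 5.78 on the log2 scale. Clec4e averaged 125 ± 40.1 CPM in DNFB ears and 1.79 ± 0.340 CPM in vehicle ears, and Clec4d 202 ± 97.2 CPM in DNFB ears and 3.66 ± 1.02 CPM in vehicle ears (SD, n = 3 each). The beta-glucan receptor Clec7a, which couples to Syk through its own tail, rose by 5.33, and the paired receptor Pira2, whose reads may be shared with other Pira copies, by 3.38. Tyrobp (DAP12), the other main ITAM chain of myeloid cells and named after its value was seen, rose by 2.82, close to the 2.89 of Fcer1g. The T cell chain Cd247 (0.37, adjusted p = 0.133) and Ms4a2, the beta chain of the mast cell IgE receptor (−0.21, adjusted p = 0.260), did not pass. Cd247 passed with vehicle library 3 left out (0.58, adjusted p = 0.0302).

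Among 13 other Fc receptor genes 9 could be tested, of which 4 rose and none fell, beside 25.9% higher and 25.4% lower among all genes tested (median log2 fold change 0.72 for the list). As 51.3% of all genes tested passed in either direction, this count is no result about the list. Fcrlb, an Fc receptor-like protein found inside cells, averaged 11.3 ± 3.78 CPM in DNFB ears and 0.433 ± 0.0428 CPM in vehicle ears (SD, n = 3 each; log2 fold change 4.69, adjusted p = 0.000150). Fcrl1, known from B cells, rose by 3.48 from a very low level, at 0.993 ± 0.178 CPM in DNFB ears and 0.0838 ± 0.0310 CPM in vehicle ears. Fcer1a, the alpha chain of the IgE receptor, rose by 2.78, to 7.83 ± 2.13 CPM in DNFB ears, against 1.13 ± 0.120 CPM in vehicle ears. The cytosolic antibody receptor Trim21 rose by 0.94 (adjusted p = 0.0130), but not with vehicle library 2 left out (adjusted p = 0.0556) or without both ears of mouse 2 (adjusted p = 0.101). Fcrls did not pass (0.72, adjusted p = 0.0733) but did under a mouse block (0.69, adjusted p = 0.0194) and with DNFB library 3 left out (0.97, adjusted p = 0.00281). Without that ear 7 of 10 tested genes passed, 6 higher and 1 lower, but the genes called in all also rose, from 7862 to 9108.

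The ligands could hardly be followed. Of the 15 listed, 11 immunoglobulin constant genes had no row under their symbols among the 19309 genes, and so were not analysed. Ptx3, a pentraxin that binds Fc gamma receptors, was the single ligand tested and averaged 223 ± 69.1 CPM in DNFB ears and 5.80 ± 1.36 CPM in vehicle ears (SD, n = 3 each; log2 fold change 5.26, adjusted p = 6.07e-05). The antibody-joining chain Jchain was too low to be tested, at 1.42 ± 1.56 CPM in DNFB ears and 0.134 ± 0.0628 CPM in vehicle ears. With DNFB library 3 left out there were 2 ligands tested and both passed, while the genes called in all rose from 7862 to 9108.

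Genes of the phagocytic cup and the phagocyte oxidase, which act after receptor engagement, rose in 17 of 20 cases, fell in 1 and missed the threshold in 2, and the median log2 fold change of the list was 1.48. The background over all genes tested was again 25.9% higher and 25.4% lower. The oxidase subunit Ncf4 rose by 3.46 on the log2 scale, the actin regulator Coro1a by 3.19 and the phagocyte myosin Myo1f by 3.09. The gene that fell, named after its value was seen, was Rab5a, a GTPase of early endosomes (−0.47, adjusted p = 0.00401), which did not pass without both ears of mouse 1 (adjusted p = 0.0648) or of mouse 2 (adjusted p = 0.0799). Pla2g4a (0.21, adjusted p = 0.0733) and Asap1 (0.33, adjusted p = 0.129) did not pass, and Asap1 did with vehicle library 3 left out (0.52, adjusted p = 0.0230).

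Of 10 partner and traffic genes of FcRn 4 rose, 1 fell and 5 missed the threshold, which is near the 51.3% of all genes tested that passed in either direction and is no result about the list. Its median was 0.16 on the log2 scale. B2m, the light chain of FcRn and of MHC class I, reached 3288 ± 293 CPM in DNFB ears, against 1020 ± 43.7 CPM in vehicle ears (SD, n = 3 each; log2 fold change 1.69, adjusted p = 0.000160), while Fcgrt itself did not pass. The sorting nexin Snx2 rose by 0.93 and the endosomal sorting gene Hgs by 0.42 (adjusted p = 0.0126). Hgs did not pass without both ears of mouse 1 (adjusted p = 0.0789) or of mouse 2 (adjusted p = 0.118), nor with DNFB library 1 as the only DNFB library (adjusted p = 0.0598). Snx1 was at 0.34 (adjusted p = 0.0262, or 0.0771 under a mouse block) and was named after its value was seen. Alb was at −0.97 (adjusted p = 0.0298, or 0.0637 with the block) from 1.24 ± 0.424 CPM in DNFB ears and 2.44 ± 0.392 CPM in vehicle ears. Neither kept its call without several of the single libraries: adjusted p ran from 0.0728 to 0.0864 for Snx1 without DNFB ears 1 or 2 or vehicle ears 1 or 3, and from 0.0510 to 0.0981 for Alb with any one library left out except DNFB library 1. The recycling GTPase Rab11a (0.04, adjusted p = 0.784) and the retromer subunit Vps35 (−0.21, adjusted p = 0.145) did not pass. With the block, and with DNFB library 2 or vehicle library 1 or 3 left out, 3 genes of this list passed in place of 5.

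Markers of most, but not all, cell types that carry these receptors were higher in DNFB ears. Beside the counts that follow, 25.9% of all genes tested rose and 25.4% fell. Of 16 macrophage and monocyte markers 15 rose (median log2 fold change 1.85), and their summed level was 4942 to 8064 CPM in DNFB ears and 1625 to 1820 CPM in vehicle ears. Of 12 neutrophil markers 8 could be tested and 7 rose (median 4.71), with a summed level of 1095 to 2388 CPM in DNFB ears and 40.4 to 85.2 CPM in vehicle ears, and Ltf at 0 in the vehicle libraries. Dendritic and Langerhans cell markers rose in 6 of 9 cases and fell in 1 (median 0.88), at 1192 to 1775 CPM in DNFB ears and 428 to 567 CPM in vehicle ears. Mast cell markers rose in 5 of 8 cases and fell in 1 (median 0.45), at 1105 to 1386 CPM in DNFB ears and 603 to 682 CPM in vehicle ears. NK cell markers were low, at 26.5 to 55.2 CPM in DNFB ears and 9.10 to 9.57 CPM in vehicle ears, with all 5 tested of 6 higher and Ncr1 at 0 in the vehicle libraries. The B and plasma cell list did not follow: of 5 tested genes of 9, 2 rose, 1 fell and 2 did not pass (median 0.28). It had Ms4a1 at 0 in the vehicle libraries and summed to 234 to 309 CPM in DNFB ears and 296 to 331 CPM in vehicle ears. T cell markers rose in 8 of 8 cases (median 1.92), at 549 to 783 CPM in DNFB ears and 326 to 364 CPM in vehicle ears. Markers of other ear tissues were lower: skeletal muscle markers fell in 6 of 6 cases (median −1.40), at 772 to 1059 CPM in DNFB ears and 1753 to 2767 CPM in vehicle ears, and cartilage markers in 4 of 5 tested (median −1.32), at 534 to 650 CPM in DNFB ears and 1079 to 1576 CPM in vehicle ears. Keratinocyte markers fell in 3 of 8 cases, fibroblast markers rose in 3 of 6 and fell in 1, and endothelial markers rose in 3 of 8 and fell in 1. In these short lists such counts are no result, as 51.3% of all genes tested passed in either direction. The part of these cell types in the receptor results was not tested.

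Set against the summed macrophage and monocyte markers of the same library, no member kept a constant proportion. The sum is weighted to abundant markers and does not stand for each of them. The log2 fold changes of the 16 markers ran from 0.06 to 7.10. The largest was that of Ly6c2, close to the 7.33 of Fcgr4. Fcgr4 in CPM was 0.0134 to 0.0157 of that sum in DNFB ears and 0.000271 to 0.000430 in vehicle ears. For Fcgr1 the values were 0.0175 to 0.0237 in DNFB ears and 0.00172 to 0.00206 in vehicle ears. Fcgr2b was at 0.0622 to 0.0723 in DNFB ears and 0.0385 to 0.0402 in vehicle ears, a smaller difference with no overlap. The groups were also apart for Fcgr3, at 0.0665 to 0.0731 in DNFB ears and 0.0400 to 0.0454 in vehicle ears. Fcer1g was at 0.0862 to 0.0950 in DNFB ears and 0.0445 to 0.0514 in vehicle ears. Syk was at 0.0201 to 0.0289 in DNFB ears and 0.00861 to 0.0108 in vehicle ears. Fcgrt ran the other way, at 0.0271 to 0.0318 in DNFB ears and 0.0778 to 0.105 in vehicle ears. Against the summed neutrophil markers Fcgr4 was again higher, at 0.0484 to 0.0605 in DNFB ears and 0.00546 to 0.0155 in vehicle ears. Fcgr2b was lower against that sum, at 0.225 to 0.281 in DNFB ears and 0.809 to 1.73 in vehicle ears. The activating Fcgr3 was lower too, at 0.2358 to 0.3001 in DNFB ears and 0.9132 to 1.801 in vehicle ears. So was Fcer1g, at 0.3144 to 0.3890 in DNFB ears and 1.034 to 2.001 in vehicle ears. Syk was at 0.09091 to 0.09884 in DNFB ears and 0.2081 to 0.3876 in vehicle ears, and Fcgrt was also lower. For Fcgr1 the groups overlapped in this proportion, at 0.0594 to 0.107 in DNFB ears and 0.0346 to 0.0927 in vehicle ears, so its higher proportion was seen against the macrophage and monocyte sum but not against the neutrophil sum.

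The genes whose profile over the 6 libraries was most like that of a member were found among 11312 genes by the root mean square difference of centred log2 CPM. For Fcer1g these were Clec4a3 (0.05), Clec4a1 (0.07) and Plek (0.08), for Fcgr2b Clec4a1 (0.05), Cfb (0.07) and Alox5ap (0.08), and for Fcgr3 Cfp (0.07), Alox5ap (0.08) and Clec4a1 (0.09). Syk was nearest to C5ar1 (0.09), Nfkbid (0.10) and Cd80 (0.11). Fcgr1 was nearest to Mmp13 (0.15), Plac8 (0.15) and Ifi209 (0.20), and Fcgr4 to Osm (0.18), Slfn1 (0.18) and Ly6c2 (0.34). Ly6c2 is also in the macrophage and monocyte marker list. Fcgrt was nearest to Stk4 (0.02), Apod (0.03) and Asl (0.04). Among the members themselves, Fcgr2b and Fcgr3 differed by 0.05, Fcgr2b and Fcer1g by 0.10, and Fcgr1 and Fcgr4 by 0.95.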

How the data were processed

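RNA from 3 DNFB and 3 vehicle ears was sequenced as single-end reads of 50 bases from poly(A)-selected RNA on a DNBSeq instrument, per the labels' protocols. Per the submitters' processing notes HISAT and GRCm39 were used, without versions. Counting tool, annotation and strand use: not given in the sources used here. The authors deposited 1 table with, per the file headers, estimated counts, FPKM and TPM for each library. The estimated counts, 19556800 to 20336900 per library, were rounded and fitted with edgeR 4.0.16 (R 4.3.3; TMM, filterByExpr with a minimum count of 10, quasi-likelihood test, no block). SE was taken as |log2 fold change| over √F. CPM use TMM factors. TPM served for levels between genes, and deposited FPKM as an alternative. Exact permutation tests used scipy 1.17.1, alignments biopython 1.88.

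The members and lists were chosen with earlier results of these data known. Mouse numbers in the titles pair the ears of an animal; same-mouse deviations correlated at −0.03, −0.15 and −0.05. Alternatives were limma 3.58.1 (voom, and log2 TPM with pseudocounts of 0.1 and 1), DESeq2 1.42.0, other scaling and filters, the mouse block and left-out libraries. Named were all members, up to 4 called genes of each list with the largest change, the 2 most abundant not called, and the 3 genes most like each member with a log2 CPM of at least 3. Some genes this rule names are not reported here. Sequences came from GENCODE M21 and RefSeq (GRCm38.p6); the deposited table has no coordinates. The fit was tested on simulated data.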

Additional observations from a re-analysis of the deposited data

How the results depend on the processing

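The 6 members that were called kept their direction and their call under all 19 alternatives each; Fcgr1 ranged from 4.74 to 5.48 on the log2 scale, Fcgr4 from 6.16 to 7.72, Fcgr3 from 2.43 to 3.03, Fcgr2b from 2.46 to 3.12, Fcer1g from 2.66 to 3.23 and Syk from 3.05 to 3.71. Fcgrt was 0.11 to 0.34 when single libraries or a mouse were left out, and 0.45 with DNFB library 1 as the only DNFB library (adjusted p = 0.0430), an alternative chosen after seeing the data, like the sum of Fcgr2b and Fcgr3. In that alternative the lone library is assumed to vary like the vehicle ears, and 7 other Fc receptors, 2 ligands and 3 FcRn genes passed. With the mouse as a block 3 FcRn genes passed and 6601 genes in all, and calls named in the text that it changed are given there. DESeq2 called 2 ligands.

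Leaving out a library or a mouse gave 2594 to 9108 genes in all, beside 7862 with all libraries, 6 to 7 members, 19 to 35 activating, 9 to 15 inhibitory, 7 to 12 ITAM and partner, 3 to 7 other Fc receptor, 1 to 2 ligand, 13 to 19 phagocytosis and 2 to 5 FcRn genes; the lowest counts for all genes and the activating, inhibitory and ITAM lists came without mouse 2. The log2 ratio differences were 4.45 to 4.80 for Fcgr4, 2.42 to 2.75 for Fcgr1 and −0.04 to 0.02 for Fcgr3, each against Fcgr2b. The direction turned for Rab11a, at −0.031 with upper-quartile factors, −0.057, −0.011 and −0.11 without the DNFB ear, the vehicle ear and both ears of mouse 3 (range −0.11 to 0.13 over all left-out libraries and mice), and −0.043 with the lone DNFB library, and for Dok1 at 0.0094 with the lone DNFB library. Of 1215 alternative values for 64 other named genes, 1135 kept direction and side of the threshold. The causes of these changes were not tested. Depth limits Fcgr4 in vehicle ears, at 9 to 14 estimated counts.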
